A study of Mus musculus with 378 samples.

Results

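Pancreatic delta cells, the islet cells that make somatostatin, are described here through 7 genes: Sst, Hhex, Rbp4, Ghsr, Ffar4, Ptprz1 and Lepr. They were taken by gene symbol from the deposited count table and the deposited variance-stabilised table, and are 7 of the 22180 genes listed. All 7 had enough counts to enter the tests, which covered 16927 genes. Islet RNA came from Diversity Outbred mice, a stock in which every animal carries its own mixture of several founder genomes. Each poly(A)-selected library stands for 1 mouse, female or male by the letter in its title, and all mice ate a high-fat, high-sugar diet with 45% fat. No age, treatment or batch is named in the labels, and there is no group on another diet. The mouse numbers run in stretches of a single sex, so 4 bands of 100 numbers were formed, each with both sexes (46, 46, 49 and 47 females and 45, 48, 50 and 47 males in bands 1 to 4). Within a band the females, all but DO-191, come before the males, and sex and this order cannot be told apart.

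Delta cells are a small share of the islet and lie among alpha cells, which make glucagon, and beta cells, which make insulin. The somatostatin they release acts on neighbouring cells and restrains the release of both hormones. Sst encodes the hormone itself, and Hhex encodes a homeodomain transcription factor needed to form and keep delta cells. Ghsr encodes the receptor through which ghrelin, a stomach and islet hormone, stimulates delta cells. Ffar4 encodes a receptor for long-chain fatty acids, and Lepr encodes the leptin receptor, which reads the fat hormone leptin. Rbp4 encodes the protein that carries retinol in blood, and Ptprz1 encodes a receptor protein tyrosine phosphatase that binds pleiotrophin. In the mouse islet the 6 genes other than Lepr are known for their enrichment in delta cells, while Lepr is also expressed by vascular cells. The libraries hold RNA of whole islets, so a gene's level is summed over all cells, and a change in the number of delta cells and a change in RNA per delta cell cannot be told apart.

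The sequences just upstream of 4 genes are shown because Sst has the highest level of the set and because Hhex, Ffar4 and Rbp4 lie close together on chromosome 19 and are compared further on. Each is the 250 bases before a transcription start annotated by RefSeq (GRCm38.p6), 5′ to 3′ on the gene's strand, and all 7 genes had such a window. Capitals mark matches on either strand to TGACGTCA (the cAMP response element), TAAT (the core bound by many homeodomain proteins) and TATAAA (a core promoter element that lies near some starts).
Sst (chr16:23890845-23891094, strand -): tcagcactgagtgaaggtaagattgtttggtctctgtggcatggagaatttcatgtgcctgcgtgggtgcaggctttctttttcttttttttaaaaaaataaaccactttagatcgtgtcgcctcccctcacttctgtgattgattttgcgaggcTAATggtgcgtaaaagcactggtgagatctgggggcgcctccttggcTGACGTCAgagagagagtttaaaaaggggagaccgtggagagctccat
Hhex (chr19:37434591-37434840, strand +): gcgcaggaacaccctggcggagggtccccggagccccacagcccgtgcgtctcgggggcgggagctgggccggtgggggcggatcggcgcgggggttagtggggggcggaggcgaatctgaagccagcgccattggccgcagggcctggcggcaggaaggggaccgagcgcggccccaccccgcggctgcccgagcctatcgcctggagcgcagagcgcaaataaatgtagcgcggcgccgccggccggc
Ffar4 (chr19:38096829-38097078, strand +): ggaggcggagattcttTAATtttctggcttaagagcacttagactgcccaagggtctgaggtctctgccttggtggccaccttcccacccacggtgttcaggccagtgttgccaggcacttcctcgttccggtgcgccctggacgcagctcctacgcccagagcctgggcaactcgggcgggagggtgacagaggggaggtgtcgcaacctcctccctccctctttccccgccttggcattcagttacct
Rbp4 (chr19:38124812-38125061, strand -): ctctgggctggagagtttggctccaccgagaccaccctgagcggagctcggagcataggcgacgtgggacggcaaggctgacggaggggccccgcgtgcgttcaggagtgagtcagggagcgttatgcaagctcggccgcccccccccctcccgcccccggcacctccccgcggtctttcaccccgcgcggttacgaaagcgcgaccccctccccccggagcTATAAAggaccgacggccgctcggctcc
The Sst window held TGACGTCA, beginning 48 bases before the start, and 1 TAAT, beginning 95 bases before it. Among 32851 windows of this length over all genes, 1.55% held TGACGTCA, and no window of the other 6 genes did. TAAT is short and stood in 54.9% of all windows. It was found near the far end of the Ffar4 window, and was not found in the Hhex window or the Rbp4 window shown. The Rbp4 window had TATAAA 28 bases before the start, a sequence present in 12.4% of all windows. G and C made up 70.8% of the Rbp4 window and 61.2% of the Ffar4 window, against a median of 52.4% over all windows, and the Hhex window was richer still. The Sst window lay below that median (47.2%). These matches describe the letters only, since no binding was measured.

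Total counts ran from 15.12 M (M for mega) to 68.76 M per library, with a median of 34.8 M. Libraries of band 4 were shallower (median 23.99 M, against 36.72 M in bands 1 to 3) and stood apart in many genes, and 87.9% of tested genes differed between bands. The sex in the title was checked against Xist and the Y-linked genes, and 0 libraries went against it on both. The labelled tissue was checked with 11 beta cell genes, whose summed level ran from 84560 to 344600 CPM, while 12 genes of acinar cells, the exocrine cells around the islets, ran from 17.96 to 68910 CPM. Levels in CPM below are as measured and pool the bands, while fitted differences carry the band as a covariate, and spreads and correlations have the mean of each of the 8 combinations of sex and band removed.

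Sst had the highest level of the 7 genes, also once transcript length was taken into account. Its level, in counts-per-million (CPM), had a median of 1106 and ran from 86.23 in the male DO-072 to 7897 in the female DO-345. Rbp4 had a median of 124.9 CPM (17.48 to 333.1). The other genes had low counts, with medians of 8.715 CPM for Hhex, 8.531 for Ptprz1, 6.194 for Ghsr, 5.792 for Ffar4 and 3.696 for Lepr. These medians rest on few reads, with a median count of 203.5 for Ghsr, 193.5 for Ffar4 and 128.5 for Lepr. In the lowest library the counts were 9 for Ghsr, 13 for Ffar4 and 30 for Hhex, so the smallest levels carry a sizeable counting error. The counts of Lepr were whole numbers in 9.79% of libraries only, while those of the other genes were whole in 100% of them, and how fractions of reads were assigned to Lepr is not stated in the labels.

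The genes lie on 5 chromosomes (GRCm38, positions from the deposited gene table). Sst (ENSMUSG00000004366) spans chr16:23889581-23890844, Ghsr (ENSMUSG00000051136) chr3:27371351-27378010, Ptprz1 (ENSMUSG00000068748) chr6:22875502-23052916 and Lepr (ENSMUSG00000057722) chr4:101717404-101815352. Hhex (ENSMUSG00000024986), Ffar4 (ENSMUSG00000054200) and Rbp4 (ENSMUSG00000024990) lie on chromosome 19, where Hhex is 656 kb from Ffar4 and 676 kb from Rbp4.

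Levels of different genes were compared per kilobase of the longest protein-coding transcript in GENCODE. On that scale the medians were 1534 CPM per kb for Sst, 107.6 for Rbp4, 4.84 for Hhex, 4.13 for Ffar4, 1.40 for Ghsr, 1.06 for Ptprz1 and 0.667 for Lepr. Sst exceeded Rbp4 and Rbp4 exceeded Hhex in 100% of libraries, and Ffar4 exceeded Ghsr in 99.5%. The other neighbours in this order were less clearly apart. Hhex exceeded Ffar4 in 65.6% of libraries, with a ratio of 0.608 to 2.09 between the 10th and the 90th percentile. Ghsr exceeded Ptprz1 in 75.9% and Ptprz1 exceeded Lepr in 76.2%. The order depends on the transcript taken. With the shortest annotated coding transcript, Lepr would stand at 17.77 CPM per kb, Ptprz1 at 1.724, above Ghsr, and Rbp4 at 304.6.

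**Figure D1:**
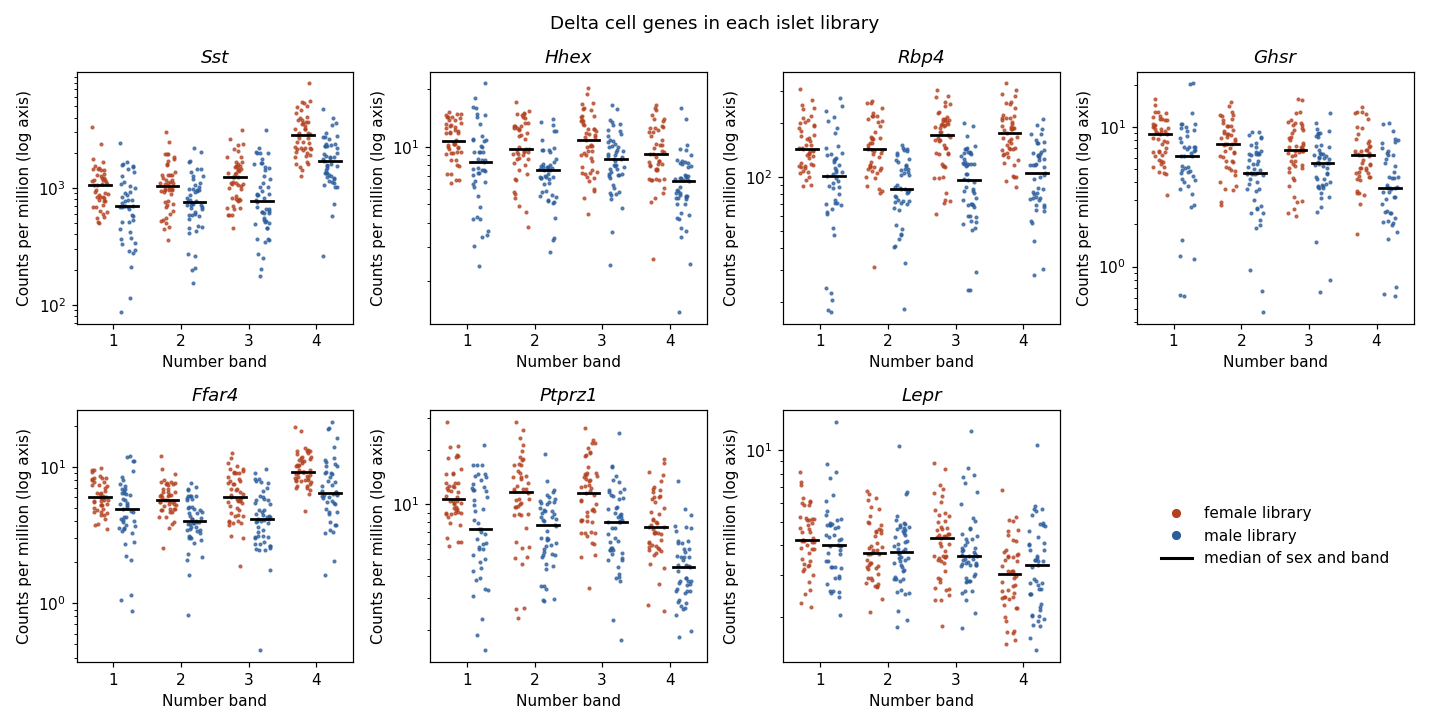
Level of each delta cell gene in every library, in counts-per-million on a log axis, by number band and sex (points: libraries, lines: medians of each sex and band). Female medians lie above male medians in all 4 bands for every gene except Lepr, Sst stands well above its other bands in band 4, and the lowest point of each gene is a male.

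The sexes were compared to ask whether delta cell RNA differs between female and male islets. Sst had a median of 1286 CPM in females (357.3 to 7897) and 928 CPM in males (86.23 to 4758). The ranges overlapped widely, and the lowest values were those of males. Rbp4 had a median of 157.9 CPM in females (31.33 to 333.1) and 96.04 CPM in males (17.48 to 274.1). Ptprz1 had a median of 10.4 CPM in females (2.324 to 28.83) and 6.296 in males (1.543 to 24.99). Hhex had a median of 10.15 CPM in females (2.592 to 20.21) and 7.563 in males (1.374 to 21.38), so that its highest library was a male. For the 2 receptors of circulating signals other than leptin, the medians were 6.996 CPM in females (1.699 to 15.88) and 4.883 in males (0.4717 to 20.45) for Ghsr, and 6.733 (1.881 to 19.61) and 4.68 (0.4507 to 21.54) for Ffar4. In both of these receptor genes the male range was wider at both ends. Lepr had nearly the same median in females (3.741 CPM, 1.544 to 8.815) and males (3.646 CPM, 1.447 to 13.22).

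Of the 7 genes 6 were higher in females and 0 lower (edgeR quasi-likelihood test, band as covariate, adjusted over all tested genes). Over all tested genes 21.7% were higher and 28.8% lower in females. The median of the 7 genes was 0.50 on the log2 scale, beside -0.01 over all tested genes. Rbp4 differed most, with 164.96 ± 56.4 CPM in females and 101.01 ± 45.6 in males (SD), a log2 difference of 0.71 (SE 0.062, adjusted p = 1.535e-23). It was followed by Ptprz1 at 0.62 (SE 0.0686, adjusted p = 8.366e-16). Ghsr stood at 0.52 (SE 0.0747, adjusted p = 3.519e-10) and Sst at 0.50 (SE 0.0768, adjusted p = 3.995e-09). Ffar4 stood at 0.41 (SE 0.0598, adjusted p = 5.958e-10) and Hhex at 0.40 (SE 0.0526, adjusted p = 6.334e-12). Lepr did not pass (log2 -0.01, SE 0.0522, adjusted p = 0.8541).

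The 6 differences were positive in all 4 bands. In band 1 alone 4 of the 7 genes were called higher in females, where 6.49% of all genes were, and Ghsr (0.41, adjusted p = 0.06381) and Ffar4 (0.24, adjusted p = 0.188) missed the threshold. In band 2 alone 6 were called (13.3% of all genes), in band 3 alone 5 (7.49%), with Sst at 0.42 (adjusted p = 0.05637), and in band 4 alone 6 (10.5%). No gene of the set had a sex difference that varied between bands beyond the spread (edgeR interaction test, adjusted p at least 0.6117, unadjusted p at least 0.2809), as 1.09% of tested genes did. The level itself varied with the band for each of the 7 genes, as it did for 87.9% of all tested genes. From band 1 to band 4, Sst rose by 1.35 and Ffar4 by 0.60 on the log2 scale, and Rbp4 by 0.09 (adjusted p = 0.03403), while Hhex (-0.30), Lepr (-0.42), Ghsr (-0.49) and Ptprz1 (-0.70) fell. The labels do not say what separates band 4, and the shallower depth of its libraries moves with these differences. The part of depth in them was not tested.

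**Figure D2:**
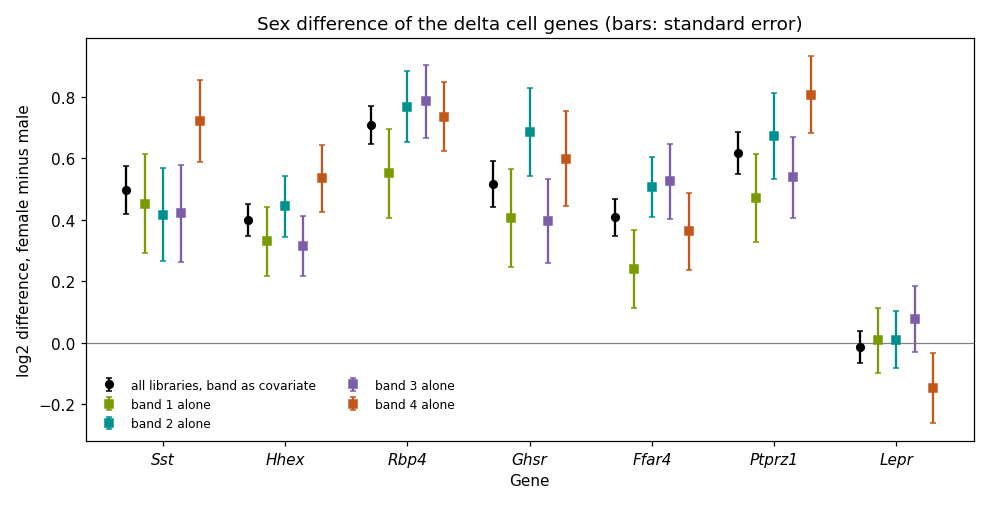
Log2 difference between females and males for each gene, from all libraries with the band as covariate (circles) and from each band alone (squares), with standard errors. Values above 0 are higher in females. The 6 genes other than Lepr lie above 0 in every fit, with Rbp4 at 0.71 and Hhex at 0.40 over all libraries.

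The sizes of these differences were compared between genes by permuting sex within bands for each of the 21 pairs, on log2 CPM. The sex difference of Rbp4 exceeded that of each of the other 6 genes. The excess was 0.18 over Sst (SE 0.0582, adjusted p = 0.004754), 0.15 over Ghsr (SE 0.0503, adjusted p = 0.004765) and 0.15 over Ptprz1 (SE 0.0515, adjusted p = 0.00759, same sign in 3 of 4 bands). It was 0.28 over Ffar4 and 0.35 over Hhex (adjusted p = 2.625e-05 for both). Hhex differed less between the sexes than Sst, by 0.17 (adjusted p = 0.004765), and also less than Ghsr and Ptprz1, by 0.20 each (adjusted p = 0.000231 and 2.625e-05). Sst, Ghsr and Ptprz1 did not differ from each other beyond the spread (largest difference 0.03, SE 0.065, adjusted p = 0.6746). Ffar4 differed from Sst by 0.10 (SE 0.0688, adjusted p = 0.1658), and from Ghsr and Ptprz1 by 0.13 and 0.14 (SE 0.0731 and 0.0759, adjusted p = 0.09879 for both), which did not pass. Lepr differed from all of the others by 0.42 to 0.77.

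Markers of some other cell types moved with sex as well. Over all tested genes 21.7% were higher and 28.8% lower in females, to be set beside the counts that follow. Of 9 alpha cell genes 7 were higher and 1 was lower in females, and their summed level ran from 6572 to 72310 CPM in females (median 23390) and from 3036 to 44990 in males (median 11980). Both genes of the PP cell list were higher in females (Ppy 0.39, Pyy 0.63). All 10 endothelial genes were lower in females, with a summed level of 375.7 to 787.5 CPM in females (median 536.8) and 425.9 to 1398 in males (median 590.7). Of 11 beta cell genes 8 were lower and none was called higher, of 10 stellate cell and fibroblast genes 4 were lower, of 5 red blood cell genes 4 were lower, and of 4 tested hepatocyte genes 3 were higher. The 11 tested acinar genes had a median log2 difference of 0.02 and none passed. With the scores of 6 lists (lymphocyte, macrophage, stellate, endothelial, duct and acinar genes) added to the band as covariates, 7 of 7 delta cell genes were higher in females, where 14.9% of all genes were. The lymphocyte score rested on Cd79a alone, since 1 of the 8 listed genes was tested. The 6 delta cell genes other than Lepr kept most of their difference in that fit (Sst 0.45, Hhex 0.33, Rbp4 0.56, Ghsr 0.35, Ffar4 0.30, Ptprz1 0.48). Lepr then stood at 0.21 (adjusted p = 0.0002985), on the other side of 0 from the fit without the scores. The part of alpha cell RNA in the sex difference was not tested.

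The genes varied widely between mice of one sex and band. The standard deviation (SD) of log2 CPM after removal of the 8 combinations of sex and band was 0.775 for Ghsr, 0.763 for Sst, 0.676 for Ptprz1, 0.634 for Rbp4, 0.596 for Ffar4, 0.522 for Hhex and 0.486 for Lepr. The median over all tested genes was 0.334. Among the 1000 genes of most similar mean level, which takes counting error into account, Rbp4 was wider than 96.5% and Sst than 94.2%. Ptprz1 was wider than 87% of such genes, Ghsr than 85.9%, Hhex than 78% and Ffar4 than 76.7%. Lepr was in the middle of its peers (55.3%). From the 10th to the 90th percentile, the residual level spanned 3.68-fold for Sst, 3.34-fold for Ghsr, 3.19-fold for Ptprz1 and 2.72-fold for Rbp4, beside 2.37-fold for Lepr.

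Males varied more than females in 4 of the 7 genes, where 4.87% of the genes tested for spread were wider in males (limma on absolute deviations, adjusted over all genes with a mean of at least 1 CPM). These were Ffar4 (SD 0.722 in males and 0.435 in females, adjusted p = 0.001035), Sst (0.885 and 0.62, adjusted p = 0.0171), Rbp4 (0.738 and 0.51, adjusted p = 0.01745) and Ghsr (0.92 and 0.596, adjusted p = 0.02031). Hhex (0.575 and 0.465), Ptprz1 (0.704 and 0.648) and Lepr (0.522 and 0.449) did not pass. The call of Sst was lost when the band was not removed (difference in absolute deviation -0.12, from -0.18, adjusted p = 0.3127), and that of Ghsr on the deposited variance-stabilised values (-0.08, from -0.19, adjusted p = 0.1114). In 11 libraries the mean deviation of the 6 genes other than Lepr was more than 2 SD below 0, and 10 of them were males (DO-072, DO-088, DO-096, DO-118, DO-201, DO-212, DO-279, DO-290, DO-374 and DO-375) and 1 a female (DO-126). Without these 11, only Ffar4 passed (adjusted p = 0.02862). They were chosen as the lowest in the same genes after their values were seen, so leaving them out narrows the male spread by construction and does not test what it rests on. The SDs of males and females were then 0.746 and 0.611 for Sst, 0.704 and 0.589 for Ghsr, 0.585 and 0.485 for Rbp4, and 0.58 and 0.427 for Ffar4.

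The lowest of these libraries were low in several genes at once. The male DO-279 had 0.4507 CPM of Ffar4, 0.6588 of Ghsr and 2.427 of Hhex. Its Sst level was 203.2 CPM and its Lepr level 8.425 CPM, which is 2.32 SD above the mean of its sex and band. DO-072 had the lowest Sst (86.23 CPM) and the lowest Rbp4 (17.48 CPM), with 4.864 CPM of Lepr. DO-088, among the deepest libraries with 68.13 M counts, had 210.8 CPM of Sst, 22.49 of Rbp4 and the highest Lepr of all libraries (13.22 CPM). DO-290 was second in Lepr (12.12 CPM) and had 1.762 CPM of Ptprz1. Depth was not low in these 4 libraries, which held 30.97 to 68.13 M counts. Without the 11 libraries the same 6 genes were higher in females, each by somewhat less (log2 0.45 for Sst, 0.36 for Hhex, 0.66 for Rbp4, 0.46 for Ghsr, 0.37 for Ffar4 and 0.58 for Ptprz1). Leaving out libraries chosen as the lowest in these genes, 10 of them males, lowers the differences by construction.

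With sex and band removed, the 6 genes other than Lepr rose and fell together across mice. All 15 of their pairs were positively correlated (Pearson r 0.349 to 0.792, adjusted p = 1.05e-05 for each, permutation within sex and band, 21 pairs). The unadjusted p of these pairs, 1e-05, is the smallest that 100000 resamples can give. Hhex and Ptprz1 were closest (r = 0.792, Spearman rho = 0.776), followed by Rbp4 and Ghsr (r = 0.782, rho = 0.724), Hhex and Ghsr (r = 0.770, rho = 0.720) and Ghsr and Ptprz1 (r = 0.757, rho = 0.756). Leaving out the 2 libraries farthest from the median in the first-named gene changed these values little (0.790, 0.764, 0.759 and 0.752). Within the 8 combinations of sex and band, r ran from 0.711 to 0.854 for Hhex and Ptprz1 and from 0.515 to 0.920 for Rbp4 and Ghsr. Sst followed Rbp4 (r = 0.693, rho = 0.629) and Hhex (r = 0.687, rho = 0.644) most closely.

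Ffar4 was the loosest of the 6. It followed Rbp4 (r = 0.676, rho = 0.608) and Sst (r = 0.548, rho = 0.483), but had r = 0.498 with Ghsr (rho = 0.380), r = 0.474 with Hhex (rho = 0.391) and r = 0.349 with Ptprz1 (rho = 0.297). Within single combinations of sex and band its r with Ghsr ran from -0.025 to 0.710. Without the 11 libraries named above, the 15 correlations ran from 0.233 to 0.765 and all were still called.

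Because a shared rise and fall may hide finer structure, the mean of the other members of the 6 was removed from each pair, an analysis added after the correlations had been seen. Hhex and Ptprz1 then had r = 0.53, Rbp4 and Ffar4 r = 0.50, Ghsr and Ptprz1 r = 0.44, Hhex and Ghsr r = 0.38, and Rbp4 and Ghsr r = 0.33. Each of these had p = 0.0001, the smallest that 10000 resamples can give. Ffar4 and Ptprz1 turned to r = -0.35, and Hhex and Rbp4 to r = 0.01. The highest values thus linked Hhex, Ptprz1 and Ghsr on one side and Rbp4 and Ffar4 on the other, with 0.33 between Rbp4 and Ghsr, while Sst kept r between 0.16 and 0.26 with Hhex, Rbp4, Ffar4 and Ptprz1 and -0.05 with Ghsr.

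**Figure D3:**
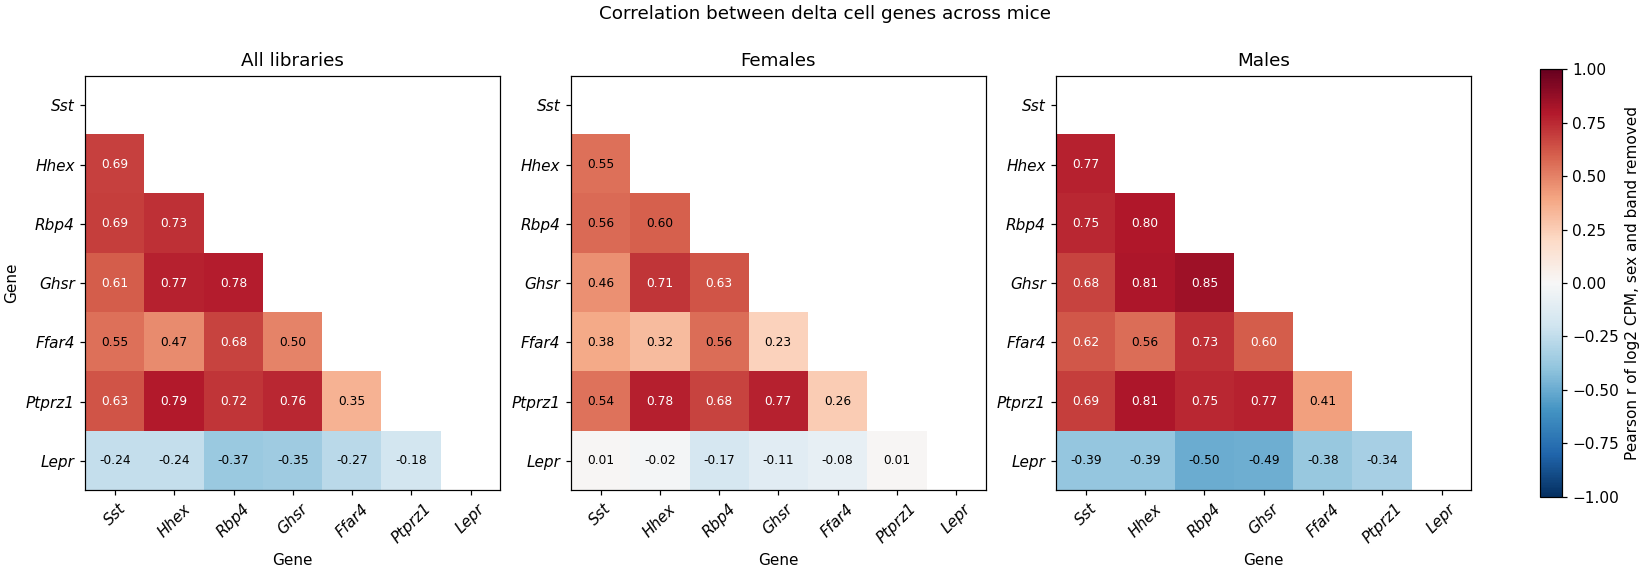
Pearson correlation of log2 CPM between the delta cell genes across mice after removal of sex and band, in all libraries, in females and in males. The 15 pairs without Lepr are positive in each panel, and the Lepr pairs lie between -0.17 and 0.01 in females and between -0.50 and -0.34 in males.

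Lepr went the other way. Its correlation was negative with Rbp4 (r = -0.373, rho = -0.287), Ghsr (r = -0.354, rho = -0.263), Ffar4 (r = -0.273, rho = -0.194), Sst (r = -0.240, rho = -0.176), Hhex (r = -0.236, rho = -0.168) and Ptprz1 (r = -0.183, rho = -0.136). The adjusted p was 1.05e-05 for the first 5 and 0.00043 for Ptprz1. Without the 2 libraries farthest from the median in the other gene of the pair, these values lay between -0.379 and -0.189. Libraries were not left out by their Lepr level. Within single combinations of sex and band the r of Lepr reached from -0.586 (Rbp4) to 0.184 (Sst). In females alone 1 of the 6 pairs passed (Rbp4, r = -0.168), and in males all 6 did (r = -0.497 to -0.336). The difference between the sexes was tested after these values had been seen, by permuting sex within bands, and it passed for all 6 Lepr pairs (adjusted p = 0.00105 to 0.02499). Without the 11 low libraries it passed for 3 of them, Sst, Ghsr and Ptprz1 (adjusted p = 0.043 each).

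Levels of the endothelial genes moved with Lepr. The mean log2 CPM of 10 endothelial genes had r = 0.478 with Lepr (rho = 0.429, adjusted p = 3.37e-05 over 91 pairs of a gene and a list, r = 0.334 to 0.641 within sex and band). All 10 endothelial genes and all 10 genes of stellate cells and fibroblasts were positively correlated with Lepr, and 18.9% of all genes were. With the endothelial score the other 6 genes had r from -0.426 (Ghsr) to -0.164 (Sst). In males these values ran from -0.527 (Ghsr) to -0.293 (Sst). In females they ran from -0.260 (Rbp4) to 0.062 (Sst), with -0.051 for Hhex. Once that score was removed, the Lepr pairs stood between -0.236 and -0.063 and 5 of 6 remained called, and with all 6 scores of other cell types removed they stood between -0.216 and -0.048. All 15 pairs without Lepr were still called after either removal.

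The scores of alpha and PP cell genes moved with the 6 delta cell genes, though not every listed alpha cell gene did. The score of 9 alpha cell genes had r = 0.620 with Rbp4 (rho = 0.602, 0.436 to 0.753 within sex and band). With the other 5 it ran from r = 0.345 (Sst) to 0.435 (Ffar4), and with Lepr it was -0.198. Within single combinations of sex and band the r of the alpha score fell to -0.030 for Hhex and 0.043 for Sst. Of the 9 alpha cell genes 5 were positively and 2 negatively correlated with Sst (22.7% and 20.8% of all genes). With Rbp4 it was 7 and 2 (26.8% and 24.9% of all genes), the negative ones being Gc (r = -0.367) and Tmem27 (-0.119). The score of Ppy and Pyy, the 2 genes of the PP cell list, had r = 0.557 with Ffar4, 0.553 with Sst and 0.516 with Rbp4, and 0.241 with Ptprz1. Pyy alone had r = 0.604 with Sst and 0.547 with Ffar4, and Ppy alone 0.412 and 0.477. Which cells the Pyy RNA came from was not measured. The score of 11 beta cell genes had r = 0.191 with Sst and r from -0.133 to -0.055 with the other 5. Taken singly, 1 of these 11 genes, Mafa, was positively correlated with Sst (r = 0.522) and 2 were negatively correlated. The median r of the 11 genes with Sst was 0.019. The score of the 4 tested hepatocyte genes had r = 0.230 with Rbp4, but its genes went apart. Fgb had r = 0.377 and Serpina1a 0.217 with Rbp4, while Alb had 0.047 and Apoa2 -0.091. Red blood cell genes had r = 0.254 with Lepr. Acinar genes had r between 0.003 and 0.111 with the 7 genes. With the alpha score removed, an analysis added after the data were seen, the 15 pairs stood between 0.225 and 0.755 and all were still called.

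**Figure D4:**
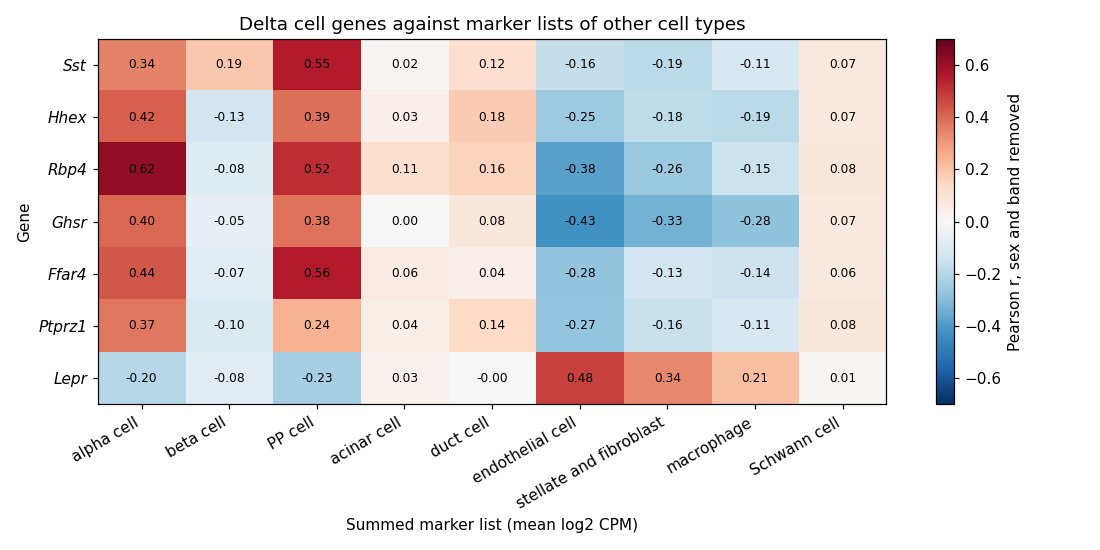
Pearson correlation across all libraries between each delta cell gene and the mean log2 CPM of marker lists for other cell types, with sex and band removed. Rbp4 has r = 0.62 with alpha cell genes and Lepr r = 0.48 with endothelial genes. The other 6 genes have negative r with the endothelial genes over all libraries, though in females alone Sst does not.

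The genes most like each member were then sought among all tested genes, in a fit of every gene on the member with sex and band removed. Many genes passed. For Sst 22.7% of genes were positively and 20.8% negatively correlated, for Hhex 20.3% and 19.8%, for Rbp4 26.8% and 24.9%, and for Ghsr 27.5% and 26.1%. For Ffar4 it was 21.8% and 18.5%, for Ptprz1 18.7% and 18.7%, and for Lepr 18.9% and 21.5%. A called correlation therefore says little by itself, and the rank among 16926 genes says more. Hhex and Ptprz1 were each other's closest gene of all. Ghsr was the closest to Rbp4, Rbp4 the closest to Ffar4, and Rbp4 and Hhex were at ranks 3 and 4 for Sst. For Lepr, no other member was among the closest genes, and Rbp4 was at rank 16896, near the most negative end.

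Outside the set, Cacna1h, which encodes a T-type voltage-gated calcium channel, was the closest gene to Sst (r = 0.747) and the second closest to Rbp4 (0.743) and Ffar4 (0.603). Ly6h, which encodes a small GPI-anchored protein, was next for Sst (0.737). F5, which encodes coagulation factor V, had r = 0.770 with Ptprz1, 0.754 with Hhex and 0.679 with Sst. Efnb3, an ephrin ligand gene, was the closest to Ghsr (0.789), and Fgf14, which encodes an intracellular regulator of sodium channels, was among the closest 5 (0.765). Nhs had r = 0.773 with Ghsr, 0.768 with Hhex and 0.735 with Ptprz1. Arg1, which encodes the urea cycle enzyme arginase, had r = 0.744 with Hhex, and Dscam, a cell adhesion gene, r = 0.717 with Ptprz1. Slc16a7, a monocarboxylate transporter gene, and Sgce, which encodes sarcoglycan epsilon, had r = 0.743 each with Rbp4, and the glucagon gene Gcg had 0.736. For Ffar4 the potassium channel gene Kcnk3 (0.586) was among the closest 5.

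Among the closest 50 genes of each member, 11 genes outside the set were shared by all 6 members other than Lepr. These were Cacna1h, Efnb3, Nhs, Gap43, Gm38345, Slc16a7, Arg1, Fam83f, Mest, Cacna1e and Crhr2. Cacna1e encodes an R-type calcium channel, Gap43 a growth cone protein, Mest an imprinted gene's product and Crhr2 the receptor for urocortin 3, a beta cell peptide that stimulates delta cells. Crhr2 averaged 1.502 CPM and had r from 0.474 (Ffar4) to 0.630 (Ptprz1) with the 6. No gene among the closest 50 of Lepr was shared by 4 members.

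The most negative correlations were smaller. The histone gene Hist2h3c1 was the most negative for Sst (r = -0.489), Tcp11l2 among the most negative for Hhex (-0.473), Gmds for Ffar4 (-0.474), the kinase gene Bckdk for Ptprz1 (-0.432) and Dgcr8, a microRNA processing gene, for Lepr (-0.442). Uggt1, which encodes a glucosyltransferase that checks protein folding, had r = -0.596 with Rbp4, -0.480 with Sst and -0.473 with Ffar4. Prkcsh, a glucosidase subunit gene, had r = -0.588 with Ghsr and -0.556 with Rbp4, and Sec63, a translocon gene, -0.479 with Sst. The cell cycle gene E2f1 had r = -0.566 with Rbp4. The closest to Lepr were Cyyr1 (0.519), Prex2 (0.511), Acer2 (0.505), Ptprb, an endothelial phosphatase gene (0.466), and Zcchc24 (0.458). With the 6 scores removed these fell to between 0.199 and 0.309, while the closest genes of the other members kept r of 0.529 or more.

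Hhex, Ffar4 and Rbp4 lie on chromosome 19 (GRCm38, 37434810 to 37440731, 38097079 to 38114263 and 38116620 to 38125321). Ffar4 and Rbp4 point towards each other, their ends 2357 bases apart, and have the same nearest genotype marker in the deposited gene table. Rbp4 was the closest of all genes to Ffar4, and Ffar4 was at rank 20 for Rbp4. On the other side of Rbp4, Pde6c, a cone phosphodiesterase gene 7.46 kb away, had r = 0.620 with Rbp4 and 0.362 with Ffar4. Gm38345, a predicted gene that lies 0.154 kb from Hhex on the opposite strand, was the second closest gene to Hhex (r = 0.775), at a mean of 0.686 CPM. Whether the authors' counting used the strand is not stated in the labels. The 2 tested genes between Hhex and Ffar4 had lower values. Myof had r = -0.050 with Ffar4 and 0.033 with Rbp4, and Exoc6 had 0.312 with Hhex, 0.187 with Ffar4 and 0.448 with Rbp4. On the far side of Hhex, Kif11, a mitotic kinesin gene 58.4 kb away between starts, had r = -0.433 with Hhex, near the most negative end (rank 16919), and Ide, farther off, had r = 0.0004, and Fra10ac1, beyond Pde6c, had -0.022 with Rbp4. Around the other 4 genes no tested neighbour within 1 Mb had r above 0.333, the value of Ak4 with Lepr. The most negative values there were -0.370 for Eif4a2 with Sst and -0.348 for Ect2 with Ghsr. Ghsr on chromosome 3 had r = 0.782 with Rbp4 and 0.770 with Hhex, and Ptprz1 on chromosome 6 had 0.792 with Hhex. The values of Ffar4 were 0.676 with Rbp4 and 0.474 with Hhex. For Ffar4 itself no gene stood above Rbp4, and Cacna1h was next (0.603). The part of position in these values was not tested.

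**Figure D5:**
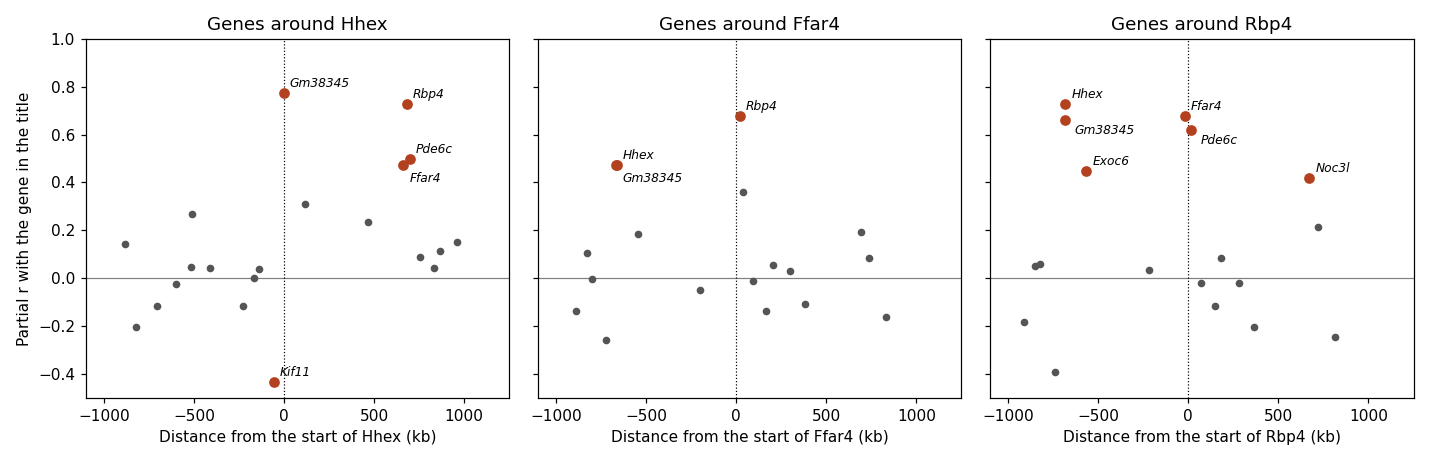
Partial correlation of each tested gene within 1 Mb with Hhex, Ffar4 or Rbp4, against the distance between the lower coordinates of both genes in kb (red and labelled: r of at least 0.4 in size). Next to the 3 delta cell genes, Gm38345 and Pde6c stand above the other neighbours.

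Other genes reported for delta cells did not all follow. The counts over the lists that follow are to be read beside the 21.7% higher and 28.8% lower in females, and the 22.7% positively and 20.8% negatively correlated with Sst, over all tested genes. Of 10 tested genes of that kind 5 were higher and 4 lower in females. Ly6h (log2 0.73), Spock3, a proteoglycan gene (0.75), Edn3, the endothelin 3 gene (0.84), and Crhr2 (0.36) were higher, and each was positively correlated with the 6 delta cell genes (r 0.167 to 0.737). The calcium-sensing receptor gene Casr (-0.22) and the Wnt antagonist gene Frzb (-0.19) were lower. Their r with the 6 ran from -0.317 to -0.105.

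Of 5 tested genes for ligands and receptors of somatostatin 3 were higher in females and 0 lower. The somatostatin receptor gene Sstr2 was higher in females (10.65 and 5.96 CPM, log2 0.84, adjusted p = 1.156e-26) and had r = 0.628 with Rbp4 and 0.251 with Sst. Sstr3, at 204.4 CPM, did not pass (log2 -0.04, adjusted p = 0.1829), nor did Sstr1 (0.11, adjusted p = 0.2935). Cort, which encodes the related peptide cortistatin, was higher in females (0.26), and so was the ghrelin gene Ghrl (0.55, adjusted p = 8.957e-08), whose r with Ghsr was 0.15. Mrap2, which encodes a receptor accessory protein, was lower (-0.39). The fatty acid receptor genes went apart. Ffar1 (-0.28), Ffar2 (-0.58) and Ffar3 (-0.27) were lower in females, unlike Ffar4, Gpr119 was higher (0.29), and none of Ffar1, Ffar2 and Ffar3 had r above 0.095 with any of the 6 genes. Of 5 other tested genes of retinol handling 3 were higher and 1 lower. The transthyretin gene Ttr, whose protein carries retinol-binding protein in blood, was higher (0.44), and Aldh1a3, a retinaldehyde dehydrogenase gene, was lower by far (2.88 ± 2.78 CPM in females, 13.8 ± 28.1 in males, SD, log2 -2.25, adjusted p = 1.499e-27). Aldh1a3 had r = -0.400 with Rbp4 and 0.359 with Lepr. Of 7 other genes of leptin receptor signalling 1 was higher and 2 lower, with Jak2 at 0.10, Leprot, a neighbour of Lepr on the same strand, at -0.09 and Ptpn1 at -0.13. Of 5 genes for ligands and partners of the Ptprz1 protein 3 were higher and 1 lower, with the pleiotrophin gene Ptn at 0.43 and the contactin gene Cntn1 at -0.25. Of 9 tested genes for inputs to delta cells 2 were higher and 3 lower, Crhr2 and Casr among them, and 3 were positively correlated with Sst. Of 11 other islet transcription factor genes 4 were higher and 6 lower, with the alpha cell gene Irx2 at 0.80, and 7 were positively and 2 negatively correlated with Sst.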

How the data were processed

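The authors deposited estimated counts per gene, not scaled between libraries, and a second version of them after a variance-stabilising transformation, close to log2. The submitters' processing notes name GRCm38 and DESeq2, and no source used here names an aligner or counter. Positions in megabases came from a deposited table of genes. Estimated counts were rounded to whole numbers and filtered by filterByExpr. Sex, band and their interaction were tested with edgeR 4.0.16 (TMM, quasi-likelihood F test, R 4.3.3), with Benjamini-Hochberg adjustment and a threshold of 0.05. SE is the log2 difference over the square root of F. Correlations used log2 CPM with a prior count of 2 after removal of 8 means of sex and band. Members were tested against all genes, and spread by sex, with limma 3.58.1, and pairs by permutation (Python 3.11.15, NumPy 2.4.6, SciPy 1.17.1). The tests were checked on simulated data. Motifs were searched by exact match on both strands. Each replicate is a separate mouse with 1 library, so differences between mice and technical error are not separated.

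The members, the gene lists and the bands were chosen with earlier results of these data known. Besides the 7 members, the text names for each member the 5 closest and 3 most negative genes without placeholder symbols, genes among the 50 closest of at least 4 members, neighbours within 1 Mb, and up to 4 genes of each list whose adjusted p for sex was lowest. Listed genes that did not pass the filter, and Lrat, Pax4, Lep, Adipoq and Plin1, were not analysed here. Frzb, Sstr3, Cort, Mafa, Pcsk1n and some neighbours were named after their values were seen, and a few genes the rule names are not reported here. Alternatives were limma-voom, DESeq2 1.42.0, DESeq2's size factors, no filter on low counts, no band term, covariates, single bands, single sexes, and the deposited log2 values.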

Additional observations from a re-analysis of the deposited data

Results flagged for a closer look

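The sexes differed in how tightly the delta cell genes were tied to each other, by a test of the difference itself in which sex was permuted within bands on residuals scaled within each sex and band. The test was chosen after the correlations had been seen, and 17 of 21 pairs passed after adjustment. The 21 pairs share 7 genes, so they are not separate results, and pairs of other genes were not tested in this way. The r of Sst was higher in males by 0.2313 with Hhex, 0.1984 with Rbp4, 0.2406 with Ghsr, 0.2387 with Ffar4 and 0.1611 with Ptprz1. The r of Hhex was higher in males by 0.1999 with Rbp4, 0.1059 with Ghsr and 0.2196 with Ffar4. That of Rbp4 was higher by 0.2244 with Ghsr and 0.1702 with Ffar4, and that of Ghsr and Ffar4 by 0.392. With Lepr the r was more negative in males, the difference being -0.4113 for Sst, -0.3876 for Hhex, -0.3504 for Rbp4, -0.392 for Ghsr, -0.2805 for Ffar4 and -0.3685 for Ptprz1. Hhex and Ptprz1 had r = 0.772 in females and 0.804 in males (adjusted p = 0.4315), and Ghsr and Ptprz1 had 0.768 and 0.762 (adjusted p = 0.9021). Without the 11 libraries lowest in the 6 genes (males DO-072, DO-088, DO-096, DO-118, DO-201, DO-212, DO-279, DO-290, DO-374 and DO-375, female DO-126) 4 of 21 pairs passed, namely Rbp4 with Ghsr and Lepr with Sst, Ghsr and Ptprz1. Leaving these libraries out also narrows the range of the levels, more so in males.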

How the results depend on the processing

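No paired analysis was possible because no mouse number occurs in both sexes. In single bands fewer mice were compared, and the genes higher and lower in females numbered 1099 and 1760 in band 1, 2251 and 2431 in band 2, 1268 and 1354 in band 3, and 1777 and 2528 in band 4, beside 3678 and 4883 over all libraries. The 6 members other than Lepr stayed higher in females under DESeq2, limma-voom, other size factors, no filter, no band term, the deposited log2 values and without the 11 low libraries. The sex difference of Lepr lay above 0 with 6 scores as covariates (0.21), in band 1 (0.00804), band 2 (0.00975) and band 3 (0.077), with limma-voom (0.027), on the deposited values (0.010) and without the 11 libraries (0.059), and only the first was called. Negative pairs called numbered 1 in females alone and 3 in band 1, beside 6. The r of Lepr turned above 0 in females with Sst (0.00803) and Ptprz1 (0.013), and, with the mean of the other members removed, with Sst (0.0135), Hhex (0.084) and Ptprz1 (0.140). The latter removal also turned Sst and Ghsr (-0.046), Hhex and Ffar4 (-0.057) and Ffar4 and Ptprz1 (-0.349). With 6 scores removed, genes correlated positively and negatively fell to 2820 and 2824 for Ghsr (from 4663 and 4419), 1634 and 1731 for Ptprz1 (from 3167 and 3172) and 1142 and 1121 for Lepr (from 3195 and 3639). The cause of these changes was not tested. Without the 11 libraries 4 pairs, from 17, differed in r between the sexes, and 1 member, from 4, was wider in males, Hhex turning to 0.00022. Sst lost its wider male spread without the band (adjusted p = 0.3127) and Ghsr on the deposited values (adjusted p = 0.1114). Depth limits Ghsr and Ffar4 in the lowest libraries, where they rest on 9 and 13 counts.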

Other observations

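The genes below belong to no comparison above and were chosen after their values were seen. Of 11 beta cell genes 1 was positively and 2 were negatively correlated with Sst, with a median r of 0.019. Mafa, a beta cell transcription factor gene, had r = 0.522 with Sst and 0.058 to 0.258 with Hhex, Rbp4, Ghsr, Ffar4 and Ptprz1. Pcsk1n, which encodes an inhibitor of a prohormone convertase, had r = 0.465 with Sst, 0.179 with Ffar4 and -0.158 to -0.007 with the other 4. Both stood far higher in band 4 than in band 1 (log2 4.73 for Mafa and 5.02 for Pcsk1n), the band in which Sst was also highest, and band means were removed from these correlations. Of 8 prohormone processing genes 1 was positively and 3 were negatively correlated with Sst, among them Cpe, which encodes the carboxypeptidase that trims hormone precursors (r = -0.312), where 22.7% and 20.8% of all genes were. Whether these values differ between members was not tested. The transcription factor gene Isl1 was positively correlated with all 6 (r = 0.212 to 0.316), and Rfx6 had r from -0.263 to -0.093.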
